A study of Rattus norvegicus with 8 samples.

Results

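The genes of the oxidative respiratory chain were followed at the RNA level in neonatal rat ventricular cardiomyocytes (NRVCMs) overexpressing HectD3. They were chosen by name alone, as the genes whose symbol started with Nduf, Uqcr, Atp5 or Mt-, the genes Sdha, Sdhb, Sdhc and Sdhd, and the genes named Cox followed by a digit from 4 to 8. These names gave 102 of the 12784 gene symbols in the table, of which 13 lie on the mitochondrial genome (Mt- genes) and 89 in the nucleus. Reading Sdh as the start of a name would have added the assembly factors Sdhaf1 to Sdhaf4 and given 106 genes.

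The cells were isolated from the ventricles of newborn rats, separated from fibroblasts on a Percoll gradient and cultured for 24 h. Control cultures then received an adenovirus carrying LacZ, which encodes the bacterial enzyme beta-galactosidase, and the others an adenovirus carrying HectD3, an E3 ubiquitin ligase, each for 72 h. RNA-seq was available from 4 LacZ and 4 HectD3 libraries, which the submitters call biological replicates, and whether any of them shared a cell preparation is not stated. Virus, culture and serum-depleted medium were common to both groups, no library came from cells without virus, and the rats are given as Wistar in the study's methods and as Sprague Dawley in its reporting summary. Values are FPKM, fragments scaled to the length of the transcript and to the mapped fragments of the library, summed over the transcripts of each gene. Because FPKM is relative to the rest of the library, and because these were bulk cultures, fewer cells of a type and less RNA per cell cannot be told apart.

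Complexes I to IV of the inner mitochondrial membrane pass electrons from NADH and succinate to oxygen and, except for complex II, pump protons, and the ATP synthase uses the proton gradient to make ATP. Complexes I, III and IV and the ATP synthase are built from subunits of both genomes, and complex II from nuclear subunits alone. In the heart, which relies on oxidative metabolism, several small complex IV subunits have a ubiquitous isoform and a muscle isoform that gains ground after birth. The nuclear genes have promoters of their own, for which NRF1, GABPA, YY1 and the estrogen-related receptors (ERR) are known regulators. The mitochondrial genome is instead transcribed from a few promoters as long precursors, which are then cut into shorter RNAs.

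Promoter windows of 250 bases before to 50 after the annotated start were taken from RefSeq (rat assembly GRCr8) for the 78 of the 89 nuclear genes that had an entry. They were searched on both strands for 4 letter patterns, NRF1 as GCGCANGCG, GABPA as CCGGAAGT, YY1 as AANATGGCG and ERR as TCAAGGTCA, where N is any base and overlapping matches of 1 pattern were counted once. The NRF1 pattern was present in 19 of the 78 windows (24.4%) against 6.26% of all 27457 RefSeq windows, and the GABPA pattern in 8 (10.3%) against 4.01%. The YY1 pattern was present in 16 windows (20.5%) against 3.33% of all, the ERR pattern in 2 (2.56%) against 0.412%, and 38 windows held none of them. Most YY1 matches, such as those of Atp5b, Atp5j2 and Ndufa2, lay after the annotated start, while those of Atp5j, Ndufa13 and Ndufs1 lay before it. The YY1 pattern contains ATG, and whether such matches covered start codons was not examined. The windows of 5 genes are printed because the values below turn on these genes, which were picked after their values had been seen. Capitals mark matches, which are 3 to NRF1 in Sdha, 1 to NRF1 in Ndufaf4 and 2 to GABPA on the opposite strand in Cox8a, while the muscle isoform genes Cox8b and Cox6a2 had none.
Sdha (chr1:30764303-30764602, plus strand): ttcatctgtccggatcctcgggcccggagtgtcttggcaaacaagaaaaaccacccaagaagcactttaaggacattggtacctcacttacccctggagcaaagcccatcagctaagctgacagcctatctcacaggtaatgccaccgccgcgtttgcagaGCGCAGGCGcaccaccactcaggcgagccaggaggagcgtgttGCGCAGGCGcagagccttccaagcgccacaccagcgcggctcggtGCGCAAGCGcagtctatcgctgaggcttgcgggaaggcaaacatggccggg
Ndufaf4 (chr5:43401545-43401844, plus strand): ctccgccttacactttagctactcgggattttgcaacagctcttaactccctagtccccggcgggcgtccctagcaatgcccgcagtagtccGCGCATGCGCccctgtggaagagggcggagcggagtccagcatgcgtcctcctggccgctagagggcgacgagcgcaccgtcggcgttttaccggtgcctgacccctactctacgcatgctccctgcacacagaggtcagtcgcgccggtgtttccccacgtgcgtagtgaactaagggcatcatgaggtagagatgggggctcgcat
Cox8a (chr1:213833574-213833873, minus strand): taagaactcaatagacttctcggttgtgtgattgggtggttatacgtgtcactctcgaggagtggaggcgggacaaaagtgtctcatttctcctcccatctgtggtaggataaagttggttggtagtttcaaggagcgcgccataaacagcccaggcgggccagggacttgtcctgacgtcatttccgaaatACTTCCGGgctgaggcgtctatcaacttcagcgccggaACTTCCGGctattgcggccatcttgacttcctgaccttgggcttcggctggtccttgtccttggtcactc
Cox8b (chr1:205408224-205408523, minus strand): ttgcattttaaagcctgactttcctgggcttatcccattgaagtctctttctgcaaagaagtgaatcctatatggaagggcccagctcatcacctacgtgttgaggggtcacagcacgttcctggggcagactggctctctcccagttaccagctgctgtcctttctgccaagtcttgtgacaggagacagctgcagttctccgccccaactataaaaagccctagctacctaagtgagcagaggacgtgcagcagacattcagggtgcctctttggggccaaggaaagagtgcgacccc
Cox6a2 (chr1:192219667-192219966, minus strand): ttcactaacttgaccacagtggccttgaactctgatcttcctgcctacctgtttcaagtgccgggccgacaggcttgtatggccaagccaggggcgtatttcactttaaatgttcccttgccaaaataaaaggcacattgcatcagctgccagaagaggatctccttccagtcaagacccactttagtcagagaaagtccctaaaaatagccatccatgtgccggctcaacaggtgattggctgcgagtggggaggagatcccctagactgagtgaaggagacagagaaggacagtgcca
These letters are a description of the windows and were not tied to binding or to the levels measured here.

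The libraries were first checked against their labels. Hectd3 measured 7.89, 7.86, 6.18 and 6.49 FPKM in LacZ 1 to 4 and 547, 915, 590.0 and 161 FPKM in HectD3 1 to 4, so that every HectD3 library lay above every LacZ library, and HectD3 4 carried the least of the 4. Its difference was 5.86 on the log2(FPKM + 1) scale (SE 0.44, limma adjusted p = 0.00292), and the two-sided exact permutation p was 0.0286, the smallest that 4 against 4 libraries can give. Total FPKM ran from 546642 to 563051 in LacZ and from 554960 to 595172 in HectD3, and the number of reads behind these values is unknown. The first principal component of the 12465 genes outside the chain (58.4% of their variance) placed LacZ 1 at -40.7, LacZ 2 at -27.1 and HectD3 4 at -13.3, apart from the other 5 libraries at 8.98 to 18.8. Cardiomyocyte markers (Tnnt2, Tnni3, Myh6, Myh7, Actc1, Myl3, Ryr2, Pln) were detected throughout, and their summed level was lowest in the same 3 libraries, with 15838, 14962 and 16368 FPKM against 18654 to 21557 FPKM in the others. Actc1 carried most of this gap, with 3229, 3149 and 4853 FPKM in these libraries against 7084 to 9411 FPKM. Without it the sum was 11515 to 12608 FPKM over all 8 libraries and highest in LacZ 1. Single markers in that sum moved in opposite directions, since Tnnt2 was lowest and Tnni3 and Pln were highest in the same 3 libraries. Summed smooth muscle markers were likewise lowest there, with 1566, 2152 and 1893 FPKM against 2572 to 3637 FPKM, whereas fibroblast markers summed to 1719 to 1982 FPKM over all 8 libraries. Over the groups, the 8 cardiomyocyte markers summed to 14962 to 21557 FPKM in LacZ and 16368 to 21106 FPKM in HectD3. At an unadjusted limma p under 0.05, 2 of them, Myh6 and Myh7, were lower, against 4.28% of all genes. The smooth muscle marker Myh11 was also lower at that limit. The endothelial marker Emcn was higher, against 2.87% of all genes, and no fibroblast, macrophage or leukocyte marker passed it. The 8 macrophage and leukocyte markers summed to 352 to 454 FPKM in LacZ and 389 to 486 FPKM in HectD3. The 5 endothelial markers summed to 69.7 to 88.6 FPKM in LacZ and 78.9 to 96.2 FPKM in HectD3. Values existed for 5 of 6 endothelial and 7 of 8 fibroblast names, and for all cardiomyocyte, smooth muscle, macrophage and leukocyte names. Whether the markers without values were expressed was not tested. Results are therefore also given without these 3 libraries, that is for LacZ 3 and 4 against HectD3 1 to 3, which was decided once the values were known.

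Transcripts of the mitochondrial genome were among the most abundant in these libraries. The RNA had been captured with oligo(dT) beads, so the levels also depend on poly(A) tails, whose part was not tested. The 13 Mt- genes together took 6.94% to 10.4% of the total FPKM of a library and the 89 nuclear genes 5.62% to 6.52%. Of the 10 genes with the highest mean FPKM 6 were Mt- genes, and of the first 100 genes 12 were Mt- genes and 10 were nuclear genes of the chain. Mt-co1, the catalytic subunit of complex IV, had the highest level of any gene, at 12308, 10961, 9424 and 8867 FPKM in LacZ 1 to 4 and 9572, 9493, 11531 and 13752 FPKM in HectD3 1 to 4. Within each group, its levels spread from 8867 to 12308 FPKM in LacZ and from 9493 to 13752 FPKM in HectD3, with LacZ 4 lowest and HectD3 4 highest.

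The order of the Mt- genes was nearly fixed. Mt-co1 came first and Mt-cox3, another core subunit of complex IV, second in 8 of 8 libraries. Mt-cyb, the cytochrome b of complex III, and Mt-co2, the third core subunit of complex IV, had mean levels of 4865 and 4728 FPKM and exchanged places in 2 libraries. The neighbors Mt-nd1, Mt-nd3 and Mt-nd4l, all membrane subunits of complex I, had means of 2614, 2580 and 2351 FPKM and changed places among libraries, so their order did not exceed the spread. Mt-nd2, Mt-atp8, Mt-nd4, Mt-nd5, Mt-atp6 and Mt-nd6 each kept the same rank in 8 of 8 libraries, with means of 4161, 3446, 2063, 1645, 973 and 155 FPKM.

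Mt-nd6, a complex I subunit, was the least abundant Mt- RNA in these poly(A) libraries and the one annotated on the minus strand. How far poly(A) capture set its level was not tested. It lies at 13543 to 14061 of the mitochondrial genome (coordinates as in the table, for which no genome build is named). It measured 161, 157, 165 and 133 FPKM in LacZ 1 to 4 and 123, 142, 192 and 172 FPKM in HectD3 1 to 4, and the LacZ values lay inside the HectD3 range. The ratio of Mt-co1 to Mt-nd6 was 76.3, 69.8, 57.2 and 66.7 in LacZ 1 to 4 and 77.8, 67, 60.2 and 80.1 in HectD3 1 to 4, so that the gap between the most and the least abundant RNA of this genome was of the same order in every library. Mt-atp8 (7758 to 7961) and Mt-atp6 (7919 to 8599), membrane subunits of the ATP synthase, overlap on the genome, as do Mt-nd4l (9870 to 10166) and Mt-nd4 (10160 to 11537), and Mt-nd5 (11736 to 13565) and Mt-nd6 lie on opposite strands over a shared stretch. How reads over the shared bases were divided is not stated, so the levels of these pairs are uncertain. The FPKM of Mt-atp8 was 3.35 to 3.76 times that of Mt-atp6, and the FPKM of Mt-nd4l 1.05 to 1.19 times that of Mt-nd4.

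**Figure D1:**
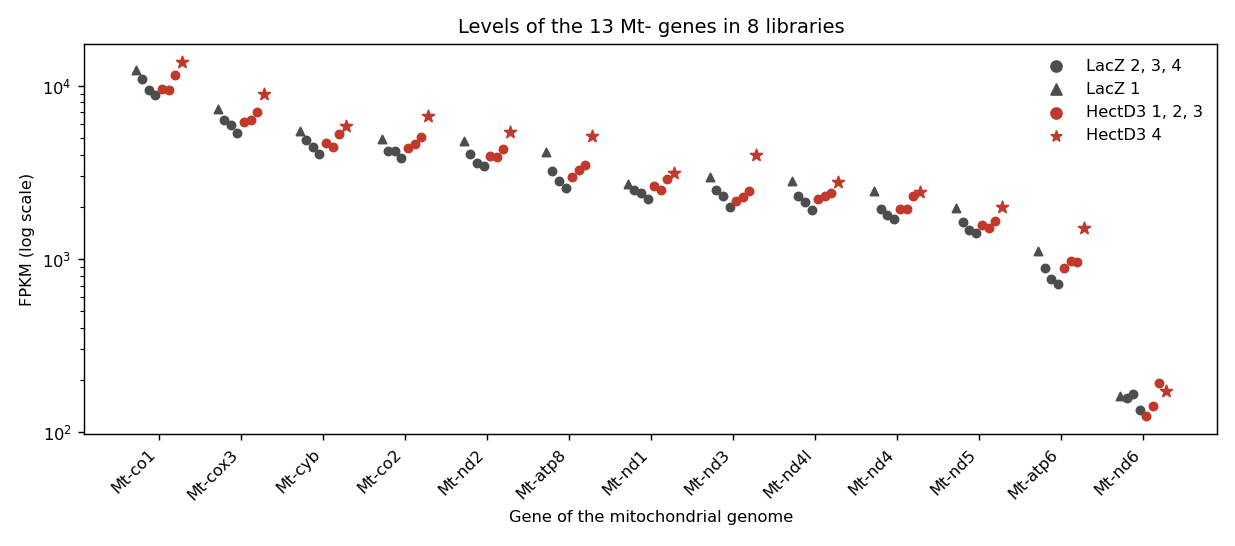
FPKM (log scale) of the 13 Mt- genes, ordered by mean level, with 1 point per library, LacZ in grey and HectD3 in red. LacZ 1 (triangles) and HectD3 4 (stars) sit at the top of their groups for most genes, and Mt-nd6 lies far below the others at 123 to 192 FPKM.

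The Mt- genes differed among libraries more than the nuclear genes did. The highest library exceeded the lowest by a median factor of 1.56 over the 13 Mt- genes and of 1.26 over the 89 nuclear genes, against 1.58 over all 12567 genes tested and 1.34 over the 986 genes of at least 100 FPKM, a limit chosen after the values had been seen. The summed Mt- level was 53153, 45448, 41404 and 38108 FPKM in LacZ 1 to 4 and 43079, 43541, 49532 and 61717 FPKM in HectD3 1 to 4. LacZ 4 was lowest, HectD3 4 was highest and LacZ 1 came second, so the groups overlapped widely.

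The summed nuclear level was 35108, 35989, 32455 and 30889.9 FPKM in LacZ 1 to 4 and 33094, 31556, 34564 and 37437 FPKM in HectD3 1 to 4, a narrower range with the same lowest and highest library. The ratio of the Mt- to the nuclear sum was 1.51, 1.26, 1.28 and 1.23 in LacZ 1 to 4 and 1.3, 1.38, 1.43 and 1.65 in HectD3 1 to 4. Its means were 1.32 ± 0.129 in LacZ and 1.44 ± 0.149 in HectD3 (SD, n = 4). HectD3 1 to 3 lay above LacZ 2 to 4, but LacZ 1 exceeded all HectD3 libraries except HectD3 4, and the difference of the means was smaller than 1 SD of either group. No test was made of this ratio, which is a sum over chosen genes. Leaving Mt-co1 and Mt-cox3 out of the sum gave 0.953, 0.783, 0.802 and 0.774 in LacZ 1 to 4 and 0.827, 0.879, 0.896 and 1.04 in HectD3 1 to 4, with the same library highest in each group.

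**Figure D2:**
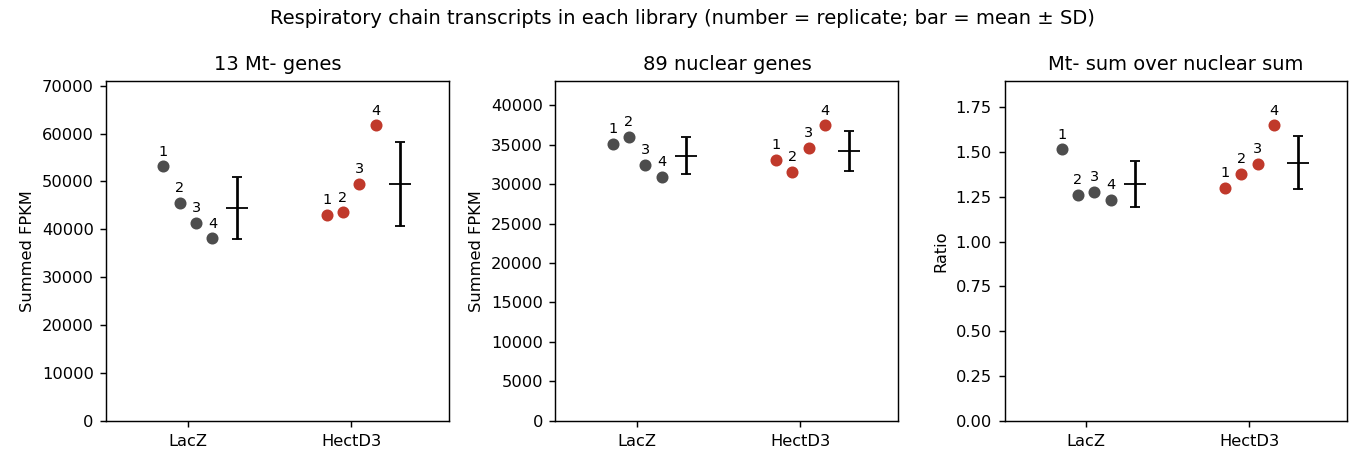
Summed FPKM of the 13 Mt- genes, of the 89 nuclear genes, and their ratio, for each library (numbers are replicates) with the mean and SD of 4 libraries beside them. The Mt- sum spans 38108 to 61717 FPKM and the nuclear sum 30890 to 37437 FPKM, and the groups overlap in all 3 panels.

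Compared complex by complex, each FPKM being per length, the median Mt- subunit stood above the median nuclear subunit in every library, though single subunits did not all do so. Mt-nd6 lay below the median nuclear subunit of complex I in every library, and Mt-atp6 below the nuclear Atp5b. The median Mt- level was 8.90 to 11.3 times the median nuclear level in complex I (7 Mt- and 35 nuclear subunits, assembly factors left out). The same ratio was 10.8 to 13.3 in complex III, for which Mt-cyb is the only mitochondrial subunit, and 8.76 to 11.5 in complex IV. It was lower for the ATP synthase, at 3.03 to 4.91, with 2 Mt- and 17 nuclear genes. These 17 were taken by the name Atp5 and include Atp5sl, described below as an assembly factor, so they are not subunits alone.

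HectD3 did not separate the Mt- genes from LacZ beyond the spread of the libraries. Over all 12567 genes tested by limma, 1 gene was higher (0.00796%) and 0% were lower at an adjusted p under 0.05, and that gene was Hectd3 itself. None of the 102 genes of the chain was called, with a smallest adjusted p of 0.671, and all 102 had passed the filter of a mean of at least 0.5 FPKM. With no adjustment, 2 nuclear genes were higher at a p under 0.05, no Mt- gene was, and 0 of the 102 were lower, against 2.87% of all genes higher and 4.28% lower. That share is no larger than the background.

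All 13 Mt- genes had a positive difference, HectD3 minus LacZ, with a median of 0.13 on the log2(FPKM + 1) scale and a range of 0.011 to 0.30. Over all genes the median was -0.023, but over the 986 genes of at least 100 FPKM it was 0.082, with 733 of them positive (74.3%). The 13 genes lie on 1 genome and were measured in the same libraries, so their common direction is not 13 separate observations. The sign was not kept under other scalings, since Mt-nd6 turned negative with TPM and with scaling over the genes that are not Mt-, and Mt-cox3, Mt-cyb, Mt-nd3 and Mt-nd6 turned negative with quantile normalization. Without HectD3 4 the median was 0.042 and Mt-co1, Mt-nd3, Mt-nd5 and Mt-nd6 were negative, and without LacZ 4 it was 0.057 and Mt-nd5 and Mt-nd6 were negative. It was 0.23 without LacZ 1 and 0.20 without HectD3 1 or without HectD3 2.

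The ATP synthase subunit Mt-atp6 had the greatest difference of the 13. It measured 1103, 884, 763 and 717 FPKM in LacZ 1 to 4 and 885, 964, 957 and 1512 FPKM in HectD3 1 to 4, with HectD3 4 far above its group and LacZ 1 second. The difference was 0.30 (SE 0.19, limma adjusted p = 0.724), with a 95% interval of -0.12 to 0.73.

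Mt-co2 measured 4951, 4199, 4193 and 3801 FPKM in LacZ 1 to 4 and 4369, 4584, 5080.2 and 6649 FPKM in HectD3 1 to 4. LacZ 1 lay within the range of the HectD3 libraries, and the remaining LacZ libraries lay below all 4 of them. The difference was 0.26 (SE 0.15, limma adjusted p = 0.723). Its ratio to Mt-co1 was 0.402, 0.383, 0.445 and 0.429 in LacZ 1 to 4 and 0.456, 0.483, 0.441 and 0.484 in HectD3 1 to 4, which overlapped between the groups in LacZ 3.

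Mt-nd1 measured 2695, 2482, 2397 and 2228 FPKM in LacZ 1 to 4 and 2624, 2481, 2873 and 3133 FPKM in HectD3 1 to 4, and its LacZ 1 value lay above HectD3 1 and HectD3 2. The difference was 0.18 (SE 0.10, limma adjusted p = 0.723). Mt-atp8 measured 4152, 3216, 2815 and 2569 FPKM in LacZ 1 to 4 and 2965, 3272, 3462 and 5116 FPKM in HectD3 1 to 4, with LacZ 1 second to HectD3 4. Its difference was 0.21 (SE 0.20, limma adjusted p = 0.769), with an interval of -0.23 to 0.65.

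Mt-nd3, a membrane subunit of complex I, measured 2969, 2497, 2311 and 1985 FPKM in LacZ 1 to 4 and 2167, 2268, 2474 and 3967 FPKM in HectD3 1 to 4. Its HectD3 libraries other than HectD3 4 fell within the LacZ range. The difference was 0.13 (SE 0.20, limma adjusted p = 0.865). The other Mt- genes, Mt-cox3, Mt-cyb, Mt-nd2, Mt-nd4, Mt-nd4l, Mt-nd5 and Mt-co1, had differences of 0.18, 0.11, 0.15, 0.12, 0.093, 0.056 and 0.088, and each overlapped between the groups.

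With LacZ 3 and 4 against HectD3 1 to 3, the Mt- median was 0.20 and the nuclear median 0.069, against 0.022 over all genes and 0.029 over genes of at least 100 FPKM. In this comparison 8 Mt- genes and 8 nuclear genes reached an unadjusted p under 0.05 as higher and 0 as lower, against 5.13% of all genes higher and 4.31% lower, and none passed the adjusted threshold, the smallest limma adjusted p being 0.22 among the Mt- genes and 0.46 among the nuclear genes. Weighting the libraries by their scatter likewise left 8 Mt- and 6 nuclear genes higher and 0 lower at an unadjusted p, against 6.12% of all genes higher and 5.42% lower, with smallest adjusted p of 0.291 and 0.272. LacZ 1, LacZ 2 and HectD3 4 were set aside once the values were known, as they stood apart in other genes. LacZ 1 and LacZ 2 also both lay above LacZ 3 and LacZ 4 for 12 of 13 Mt- genes and 66 of 89 nuclear genes. HectD3 4 was the highest of the 8 libraries for 10 of 13 Mt- genes and 47 of 89 nuclear genes. The LacZ libraries that remain were thus the lower ones for most of these genes, and these counts are a description.

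The nuclear genes as a whole were nearer to 0. Their median difference was 0.023, with 61 of 89 positive and a range from -0.24 to 0.46. With TPM 34 of 89 were positive and with median-ratio scaling 75, so that the balance of signs followed the scaling. Without HectD3 4 it was 33 and the median -0.014, without LacZ 4 it was 38 and the median -0.017, and leaving out each other library gave medians of 0.0071 to 0.059. Class medians were -0.011 for the core subunits of complex I, 0.026 for its accessory subunits and 0.053 for the Nduf assembly factors. They were -0.022 for complex II, 0.042 for complex III, 0.051 for complex IV and -0.0086 for the 17 Atp5 genes, Atp5sl among them.

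**Figure D3:**
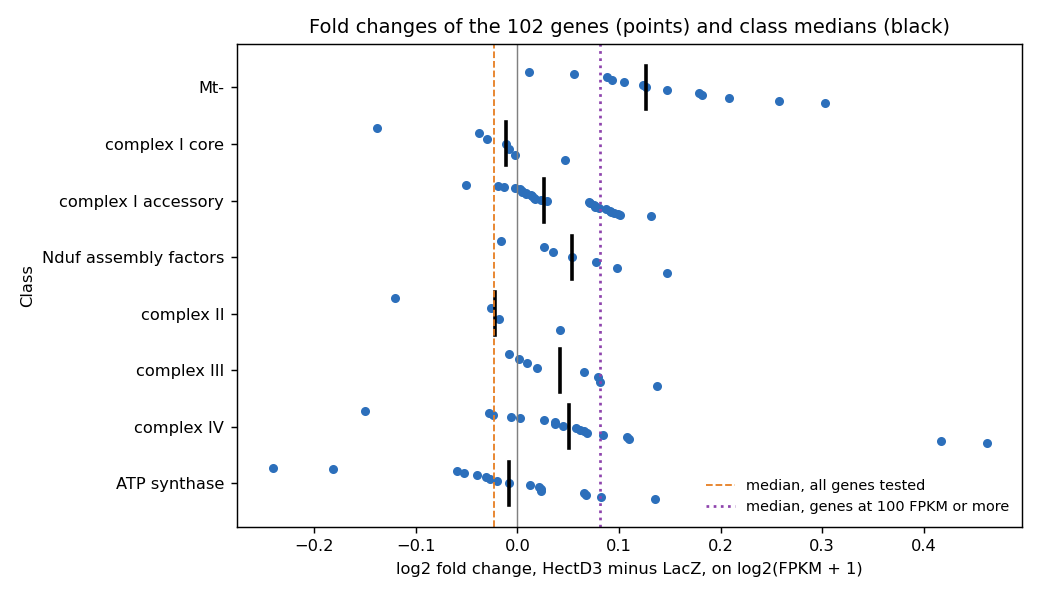
Difference of each of the 102 genes (points), HectD3 minus LacZ on log2(FPKM + 1), by class, with class medians in black and the medians of all genes tested (dashed) and of genes of at least 100 FPKM (dotted). The Mt- genes lie from 0.011 to 0.30, and Cox4i2 and Ndufa4l2 of complex IV stand apart at 0.46 and 0.42.

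Complex I, which oxidizes NADH, had 7 nuclear core subunits that carry its flavin and iron-sulfur clusters, 28 accessory subunits and 7 assembly factors named Ndufaf. Among the core subunits, Ndufv2, which binds an iron-sulfur cluster, had the highest mean level, at 361 ± 28.3 FPKM in LacZ and 354 ± 27 FPKM in HectD3 (SD, n = 4). Ndufs1, which holds iron-sulfur clusters of the electron path, measured 217, 197, 160.3 and 159 FPKM in LacZ 1 to 4 and 155, 165, 178 and 164 FPKM in HectD3 1 to 4. LacZ 1 and 2 lay above all other libraries, while LacZ 3 and 4 lay within the HectD3 range. The difference was -0.14 (SE 0.11, limma adjusted p = 0.744), the smallest p among core subunits below 0, and it was 0.052 for LacZ 3 and 4 against HectD3 1 to 3. Ndufs8, another iron-sulfur subunit, was the only core subunit above 0, at 0.047 (SE 0.093, limma adjusted p = 0.896).

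Accessory subunits of complex I had mean levels of 27.8 to 489 FPKM. Ndufs5 was the only gene of the chain whose groups did not overlap, against 2.44% of all genes not overlapping in the higher and 2.81% in the lower direction. It measured 182, 188, 176 and 177 FPKM in LacZ 1 to 4 and 192, 189, 201 and 212 FPKM in HectD3 1 to 4, with LacZ 2 and HectD3 2 less than 1 FPKM apart. The difference was 0.13 (SE 0.064, limma adjusted p = 0.717), with an interval of -0.013 to 0.27 that included 0. The most abundant accessory subunits, Ndufb9 and Ndufa5, measured 474 ± 27.7 FPKM in LacZ and 503 ± 20.7 FPKM in HectD3 (SD, n = 4) and 477 ± 46 FPKM in LacZ and 479 ± 61 FPKM in HectD3 (SD, n = 4). Ndufc1 had the lowest difference of the class, at -0.051 (SE 0.13, limma adjusted p = 0.92). The accessory subunits Ndufa13 and Ndufv3 are uncertain, the first because it was listed at a short locus spanning 429 bases on chromosome 7 and the second because its symbol joined loci on chromosomes 20 and 13.

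The assembly factors had means of 7.18 to 29.0 FPKM, lower than every nuclear complex I subunit except Ndufa13, whose mean was 27.8 FPKM. Ndufaf3, the most abundant, measured 28 ± 1.33 FPKM in LacZ and 30.1 ± 1.3 FPKM in HectD3 (SD, n = 4), with a difference of 0.098 (SE 0.072, limma adjusted p = 0.732). Ndufaf4, which acts in building the early complex and whose promoter window held an NRF1 match, measured 18.2, 19.4, 28.5 and 28.8 FPKM in LacZ 1 to 4 and 28.8, 23.2, 26.7 and 20.4 FPKM in HectD3 1 to 4. LacZ 1, LacZ 2 and HectD3 4 were the 3 lowest libraries for Ndufaf4 and for Ndufaf6, another assembly factor, and the 3 highest for 1 of the 7 assembly factors. For the 95 genes of the chain that are not assembly factors, they were the 3 highest for 38 and the 3 lowest for 0. The share of all genes with this pattern was not counted, and the same libraries stood apart in genes outside the chain. The difference of Ndufaf4 between groups was 0.078 (SE 0.17, limma adjusted p = 0.908). Ndufaf2 was the only assembly factor below 0, at -0.016 (SE 0.10, limma adjusted p = 0.972).

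Complex II, succinate dehydrogenase, links the chain to the tricarboxylic acid cycle and is wholly nuclear. Sdha, its flavin subunit, measured 321, 296, 228 and 228 FPKM in LacZ 1 to 4 and 228, 241, 251 and 257 FPKM in HectD3 1 to 4. LacZ 1 and LacZ 2 lay above every other library, and LacZ 3 and 4 lay within less than 1 FPKM of HectD3 1, the lowest HectD3 library. The difference was -0.12 (SE 0.12, limma adjusted p = 0.78), and 0.071 without LacZ 1, LacZ 2 and HectD3 4. Sdhd, a membrane anchor, had the highest mean level and measured 334, 356, 267 and 266 FPKM in LacZ 1 to 4 and 278, 298, 312 and 367 FPKM in HectD3 1 to 4, high in LacZ 1, LacZ 2 and HectD3 4. Its difference was 0.042 (SE 0.12, limma adjusted p = 0.935). The other anchor, Sdhc, measured 279 ± 26.3 FPKM in LacZ and 275 ± 9.74 FPKM in HectD3 (SD, n = 4), with a difference of -0.018 (SE 0.078, limma adjusted p = 0.956).

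Complex III passes electrons from quinol to cytochrome c. Its most abundant nuclear RNA was Uqcrh, the acidic hinge subunit near cytochrome c1, at 593, 675, 618 and 604 FPKM in LacZ 1 to 4 and 639.9, 591, 680.2 and 727 FPKM in HectD3 1 to 4, and the groups overlapped. The difference was 0.081 (SE 0.083, limma adjusted p = 0.786). Uqcr10, a small structural subunit, measured 420.4, 387, 419 and 410.3 FPKM in LacZ 1 to 4 and 456, 396, 462 and 493 FPKM in HectD3 1 to 4, so that LacZ 1, LacZ 3 and LacZ 4 lay between HectD3 2 and HectD3 1. Its difference was 0.14 (SE 0.080, limma adjusted p = 0.724). Uqcr11 measured 479 ± 41.9 FPKM in LacZ and 505 ± 22.7 FPKM in HectD3 (SD, n = 4), and the core protein Uqcrc2 had the only difference of the class below 0, at -0.0081 (SE 0.10, limma adjusted p = 0.986). Uqcrb joined a locus on chromosome 7 with a second on chromosome 1, which carried the greater FPKM, and is uncertain for that reason.

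Complex IV, cytochrome c oxidase, showed the clearest isoform structure. The ubiquitous Cox4i1 was 243 to 529 times as abundant as Cox4i2, an isoform known from lung and from low oxygen. Cox4i1 measured 1075 ± 91.6 FPKM in LacZ and 1078 ± 114 FPKM in HectD3 (SD, n = 4), with a difference of 0.0021 (SE 0.097, limma adjusted p = 0.997). Cox4i2 measured 2.52, 2.62, 2.22 and 1.84 FPKM in LacZ 1 to 4 and 4.18, 2.39, 3.3 and 4.56 FPKM in HectD3 1 to 4. The groups overlapped in HectD3 2, which lay below LacZ 1 and LacZ 2, and HectD3 4 and HectD3 1 were the highest. The difference was 0.46 (SE 0.17, limma adjusted p = 0.671), with an unadjusted p of 0.022 and an interval of 0.083 to 0.84.

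Ndufa4, once counted in complex I and now placed in complex IV, and its paralog Ndufa4l2, a gene known to respond to low oxygen, formed a second pair of this kind. Ndufa4 measured 505 ± 24.2 FPKM in LacZ and 527 ± 52.3 FPKM in HectD3 (SD, n = 4), with a difference of 0.057 (SE 0.084, limma adjusted p = 0.851). Ndufa4l2 measured 4.44, 5.99, 6.79 and 4.03 FPKM in LacZ 1 to 4 and 6.62, 8.31, 6.52 and 7.87 FPKM in HectD3 1 to 4, and LacZ 3 lay above HectD3 1 and HectD3 3. The difference was 0.42 (SE 0.16, limma adjusted p = 0.671), with an unadjusted p of 0.027. At 4.03 to 8.31 FPKM its RNA stayed at least 57.0 times below that of Ndufa4 in each library. The filter at a mean of 5 FPKM removed Cox4i2 but not Ndufa4l2.

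Muscle and ubiquitous isoforms differed from pair to pair. Cox6a2, the heart and skeletal muscle isoform, was the most abundant nuclear RNA of complex IV, at 1213, 1202, 1412 and 1226 FPKM in LacZ 1 to 4 and 1362, 1242, 1434 and 1404 FPKM in HectD3 1 to 4. LacZ 3 lay above the other LacZ libraries and within the HectD3 range. Its difference was 0.11 (SE 0.084, limma adjusted p = 0.741), and its ratio to the ubiquitous Cox6a1 stayed between 2.05 and 2.34. The pair Cox7a1 and Cox7a2 stood the other way, with the muscle isoform Cox7a1 at 0.712 to 3.18 FPKM and the ubiquitous Cox7a2 at 873 ± 57 FPKM in LacZ and 916 ± 79.1 FPKM in HectD3 (SD, n = 4). Cox6b2, a testis isoform, measured 2.81 to 5.00 FPKM, and Cox6b1 134 to 217 times as much, with the reservation that Cox6b1 joined its locus on chromosome 1 to a second locus spanning 261 bases on chromosome 2.

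The pair Cox8b and Cox8a split the libraries within groups. Cox8b, the muscle isoform, measured 986, 1017, 593 and 549.5 FPKM in LacZ 1 to 4 and 618, 606, 621 and 928 FPKM in HectD3 1 to 4. LacZ 1, LacZ 2 and HectD3 4 formed a high set, and the other 5 libraries lay between 550 and 621 FPKM. Cox8a, the ubiquitous isoform, measured 713, 738, 749.7 and 682 FPKM in LacZ 1 to 4 and 758, 737, 757 and 865 FPKM in HectD3 1 to 4, with HectD3 4 highest but LacZ 1 and LacZ 2 inside the range of the rest. The ratio of Cox8b to Cox8a was 1.38, 1.38, 0.791 and 0.805 in LacZ 1 to 4 and 0.816, 0.823, 0.821 and 1.07 in HectD3 1 to 4. It was above 1 in LacZ 1, LacZ 2 and HectD3 4 and from 0.791 to 0.823 elsewhere, so that the more abundant isoform differed among libraries of the same group. The differences between groups were -0.15 (SE 0.23, limma adjusted p = 0.861) for Cox8b and 0.11 (SE 0.075, limma adjusted p = 0.731) for Cox8a. Of the printed promoter windows, that of Cox8a held the 2 GABPA matches and that of Cox8b none, and a link to these levels was not tested.

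**Figure D4:**
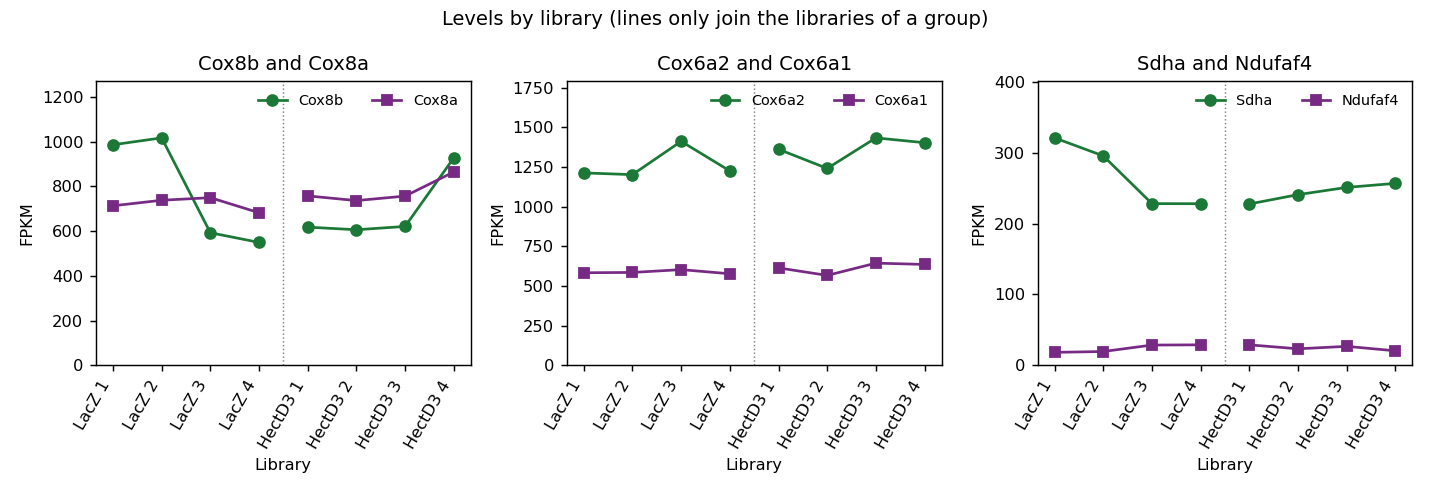
FPKM by library for Cox8b and Cox8a, Cox6a2 and Cox6a1, and Sdha and Ndufaf4, with lines that only join the libraries of a group and replicates in no order. Cox8b lies above Cox8a in LacZ 1, LacZ 2 and HectD3 4 and below it in the other 5 libraries, whereas Cox6a2 exceeds Cox6a1 in all 8.

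Cox7a2l, a factor of supercomplex assembly, measured 179, 178, 127 and 130.4 FPKM in LacZ 1 to 4 and 136, 147, 144 and 202 FPKM in HectD3 1 to 4. It followed the pattern of Cox8b, with HectD3 4, LacZ 1 and LacZ 2 the 3 highest libraries. The difference was 0.038 (SE 0.16, limma adjusted p = 0.954).

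Among the nuclear genes of the ATP synthase, Atp5b and Atp5a1 of its catalytic part had the highest levels. Atp5b, the beta subunit, measured 2067, 1996, 1637 and 1646 FPKM in LacZ 1 to 4 and 1703, 1675, 1829 and 1907 FPKM in HectD3 1 to 4, and Atp5a1, the alpha subunit, 1072 ± 125 FPKM in LacZ and 1025 ± 54.6 FPKM in HectD3 (SD, n = 4). LacZ 1 and LacZ 2 were the highest libraries for Atp5b, and the differences were -0.040 (SE 0.10, limma adjusted p = 0.921) and -0.060 (SE 0.095, limma adjusted p = 0.866). Atp5g1, Atp5g2 and Atp5g3 encode the same mature subunit of the rotor ring, and their levels ran in the order Atp5g3, Atp5g2, Atp5g1 in each library, at means of 849 ± 35.8 FPKM in LacZ and 864 ± 61.1 FPKM in HectD3 (SD, n = 4), 570.0 ± 31 FPKM in LacZ and 598 ± 54.6 FPKM in HectD3 (SD, n = 4) and 433 ± 69.4 FPKM in LacZ and 422 ± 27.3 FPKM in HectD3 (SD, n = 4). The ratio of Atp5g3 to Atp5g1 was 1.73, 1.78, 2.28 and 2.19 in LacZ 1 to 4 and 2, 2.07, 2.05 and 2.08 in HectD3 1 to 4, lowest in LacZ 1 and LacZ 2.

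Atp5j2, the f subunit of the membrane part, measured 633, 696, 695 and 650.5 FPKM in LacZ 1 to 4 and 744, 668, 723 and 808 FPKM in HectD3 1 to 4, and LacZ 2 and LacZ 3 lay above HectD3 2. The difference was 0.14 (SE 0.078, limma adjusted p = 0.724), the smallest p above 0 in its class. Atp5sl, chosen by its name, is known in human as the complex I assembly factor DMAC2, and it measured 19.3, 18.8, 12.2 and 12.2 FPKM in LacZ 1 to 4 and 11.6, 12.3, 11.7 and 15.9 FPKM in HectD3 1 to 4. LacZ 1, LacZ 2 and HectD3 4 again formed the high set. The difference was -0.24 (SE 0.18, limma adjusted p = 0.733), the lowest of the 102, and it was -0.036 for LacZ 3 and 4 against HectD3 1 to 3.

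Libraries of the same group also differed from each other across the chain. LacZ 1 and LacZ 2 both lay above LacZ 3 and LacZ 4 for 78 of the 102 genes, against 48.1% of all genes, and both below for 5, against 23.5%. These 78 included 12 of 13 Mt- genes, 7 of 7 core subunits of complex I and 4 of 4 subunits of complex II, while 3 of the 5 below were assembly factors. The median log2 difference between these pairs of libraries was 0.32 for the Mt- genes, 0.33 for complex II, 0.29 for the complex I core and 0.18 for the nuclear genes. It was 0.12 over all genes and -0.060 over the genes of at least 100 FPKM. Between the same libraries, 2 of 8 cardiomyocyte markers lay above (Tnni3 and Pln) and 3 below (Actc1, Tnnt2 and Myl3), 1 of 4 smooth muscle markers above (Myh11) and 3 below, 3 of 5 endothelial markers above and 0 below, 2 of 7 fibroblast markers above and 2 below, and 8 of 8 macrophage and leukocyte markers below. Their part in this pattern was not tested.

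HectD3 4 was the highest of the 8 libraries for 57 of the 102 genes, against 18% of all genes and 42.2% of the genes of at least 100 FPKM. Among the Mt- genes it was the highest for 10 of 13, and its median difference from the other HectD3 libraries was 0.42 for Mt- genes and 0.15 for nuclear genes, against 0.063 over all genes. LacZ 4 was the lowest library for 55 of the 102 genes, 12 of 13 Mt- genes among them, against 11.6% of all genes. HectD3 4 also carried the least Hectd3 of its group and the highest total FPKM, and the part of either in these values was not tested.

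**Figure D5:**
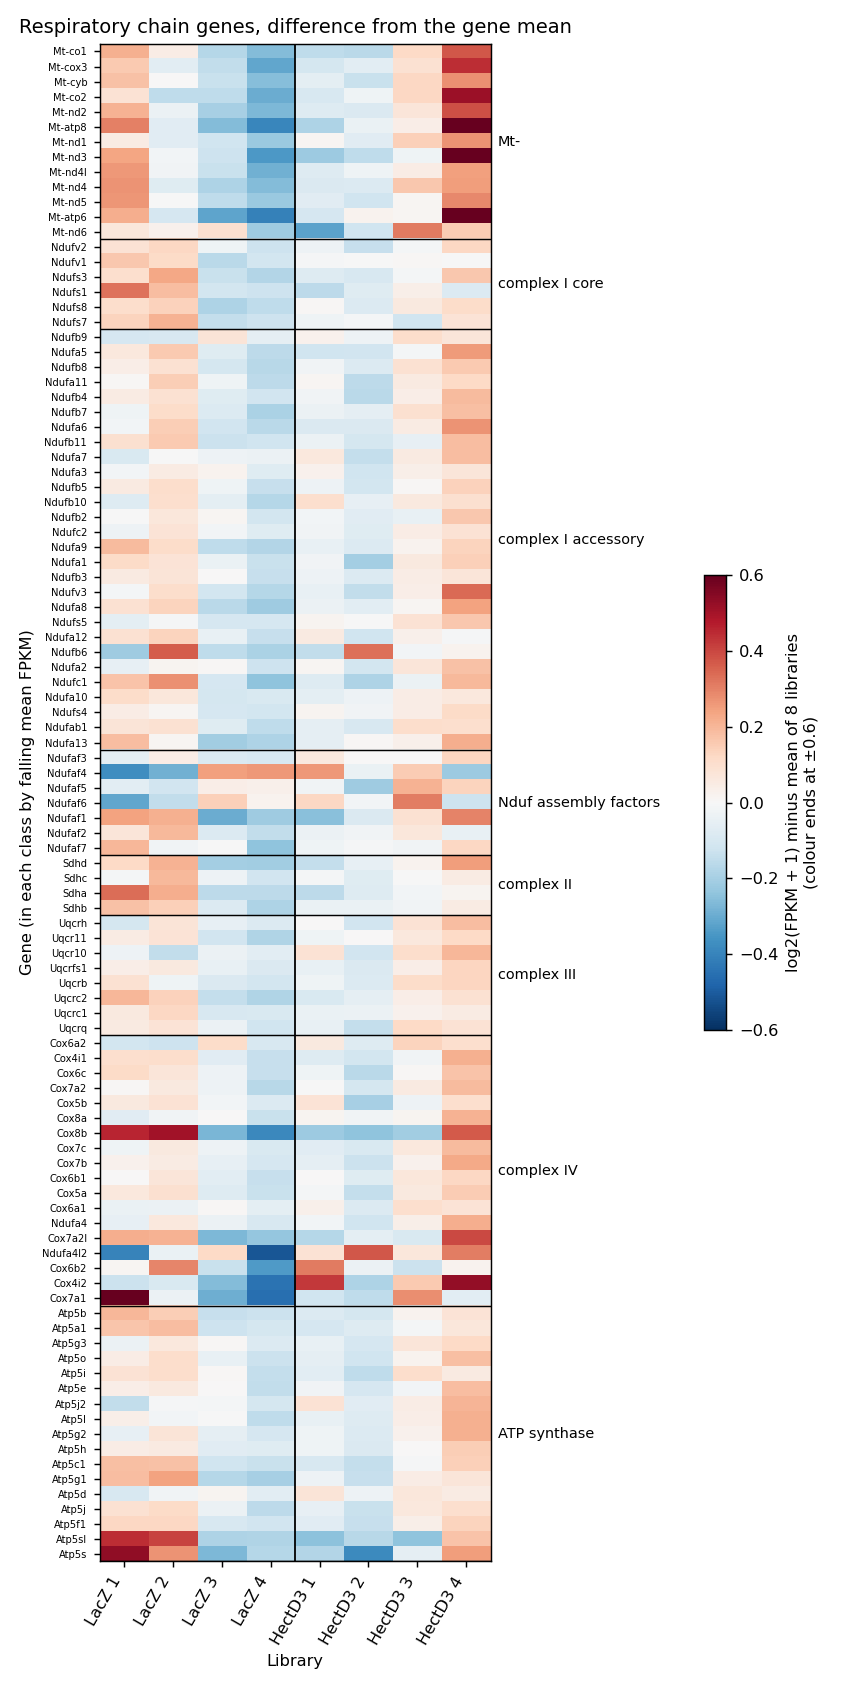
Difference of each gene shown (rows, by class and falling mean level) from its mean over the 8 libraries on log2(FPKM + 1), colored to 0.6 either side of 0, with the LacZ libraries left and the HectD3 libraries right of the line. Red columns at LacZ 1, LacZ 2 and HectD3 4 run through most classes, and Ndufaf4 and Ndufaf6 stand out in blue there.

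Other genes that build or serve the chain were counted from lists of their own. Of 18 carriers and coenzyme Q genes tested, among them Cycs (cytochrome c), Cyc1 (cytochrome c1 of complex III) and the Coq genes of coenzyme Q synthesis, 0 passed even an unadjusted p of 0.05 in either direction, and their median difference was -0.021. Of these, Cycs and Coq8a are named after their values had been seen. Cycs measured 218, 214, 236 and 217 FPKM in LacZ 1 to 4 and 219.8, 230.0, 236 and 225 FPKM in HectD3 1 to 4, and its difference was 0.042 (SE 0.062, limma adjusted p = 0.852). Coq8a, an atypical kinase needed for coenzyme Q synthesis, measured 181, 176, 51.7 and 59 FPKM in LacZ 1 to 4 and 59.9, 91, 62.1 and 146 FPKM in HectD3 1 to 4. It had the same high set of LacZ 1, LacZ 2 and HectD3 4 as Cox8b, and the difference between groups was -0.24 (SE 0.46, limma adjusted p = 0.89). Of 40 assembly factors outside the names used, with a median difference of -0.0073, 0 were higher and 1 was lower at an unadjusted p, against 2.87% of all genes higher and 4.28% lower. That gene was Foxred1, a complex I assembly factor at -0.38 (SE 0.17, limma adjusted p = 0.698).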

How the data were processed

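Poly(A) RNA of 8 NRVCM libraries (4 LacZ, 4 HectD3) was sequenced with a stranded dUTP protocol as paired ends. The authors deposited FPKM per transcript, computed with Ballgown on StringTie estimates from HISAT2 alignments of cutadapt-trimmed reads. Tool versions, genome and annotation: not given in the sources used here. Whole reads could not be recovered from the FPKM (at most 1.48% of low transcripts shared 1 ratio between libraries), so depth is unknown and no counting interval is given. The FPKM of 15976 transcripts was summed per gene symbol, 96 symbols joining more than 1 gene ID.

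HectD3 minus LacZ was fitted on log2(FPKM + 1) with limma 3.58.1 (trend, two-sided, R 4.3.3) over 12567 genes (mean at or above 0.5 FPKM), and p-values were Benjamini-Hochberg adjusted over all of them. Fold changes on this scale understate the change of low genes. The p-values rest on the spread among these libraries alone, part of which may be technical. The script was tested on simulated data. No transcript had the same nonzero value in any 2 libraries, so none was a copy of another. Correlations of log2 values between libraries were 0.964 to 0.995, which cannot tell whether any of them shared RNA.

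The genes and lists were chosen with earlier results of these data known. Named genes were Hectd3, every Mt- gene, in each nuclear class the 2 most abundant members and the smallest p in each direction, isoform partners, members with no overlap and the 4 with the widest spread. Alternatives covered pseudocount, filters, TPM, scaling, transcript choice, model, replicate block and leaving out each library. For 1 gene of the chain, single values are not reported here, though it stays in the counts.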

Additional observations from a re-analysis of the deposited data

Results flagged for a closer look

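In groups of 4 libraries, a highest or lowest library far from the other 3 was found in 7 of 108 groups examined, where chance gives about 1 in 20. Of these, 5 lay in HectD3 4, which was highest for Mt-atp6 (1512 FPKM against 885 to 964 FPKM in the other HectD3 libraries), Mt-nd3 (3967 against 2167 to 2474 FPKM), Cox8b (928 against 606 to 621 FPKM), Cox8a (865 against 737 to 758 FPKM) and Cox7a2l (202 against 136 to 147 FPKM). Cox6a2 was highest in LacZ 3, at 1412 FPKM against 1202 to 1226 FPKM in the other LacZ libraries. The ratio of the summed Mt- to the summed nuclear level was highest in LacZ 1, at 1.51 against 1.23 to 1.28.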

How the results depend on the processing

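None of the 102 genes was called at an adjusted p under 0.05 under any alternative, by limma or by an ordinary linear model, and none was lower even at an unadjusted p. Read depth is unknown and could not be used to weigh single values, and some symbols join loci that may share reads. The number of genes called over all genes, 1 as reported, was 2 with a mean of at least 5 FPKM, with TPM and with scaling over genes that are not Mt-, 3 with median-ratio scaling and with quantile normalization, 11 with library weights, 8 for LacZ 3 and 4 against HectD3 1 to 3 (added after the data had been seen) and 1 to 5 when each library was left out (5 without HectD3 4, 2 without LacZ 2). Nuclear genes higher at an unadjusted p, 2 as reported, were 1 at a mean of at least 5 FPKM, 3 with median-ratio scaling and with an ordinary linear model, 6 with library weights, 8 in the added comparison and 0 to 2 with a library left out (0 without LacZ 4 or HectD3 4, 1 without LacZ 1 or HectD3 1). Mt- genes higher at an unadjusted p, 0 as reported, were 8 with library weights, 8 in the added comparison and 0 to 1 with a library left out (1 without LacZ 1). Hectd3 kept its log2 difference of 5.86 under an ordinary linear model, but its adjusted p was 0.155. The cause was not tested for any of these.

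With the replicate number as a block, 1 nuclear gene was higher at an unadjusted p, and no other call changed. Deviations of same-numbered libraries correlated at -0.373, -0.00886, 0.338 and -0.613, so the numbers do not pair the libraries.

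Signs of log2 differences turned as follows, all without a call and with the cause not tested. For LacZ 3 and 4 against HectD3 1 to 3 the sign turned for Atp5a1 0.053, Atp5b 0.079, Atp5g1 0.14, Cox7a1 0.38, Cox8b 0.11, Ndufaf2 0.12, Ndufaf4 -0.13, Ndufc1 0.073, Ndufs1 0.052, Ndufv2 0.015, Sdha 0.071, Sdhc 0.045 and Uqcrc2 0.13. With TPM the sign turned for Atp5g3 -0.026, Cox4i1 -0.047, Cox7a2l -0.011, Mt-nd6 -0.038, Ndufa5 -0.045, Ndufs8 -0.0025 and Sdhd -0.0076. With library weights the sign turned for Atp5a1 0.032, Atp5b 0.056, Atp5g1 0.11, Cox7a1 0.30, Cox8b 0.097, Ndufaf2 0.092, Ndufaf4 -0.12, Ndufc1 0.069, Ndufs1 0.011, Ndufv2 0.018, Sdha 0.037, Sdhc 0.038 and Uqcrc2 0.11. With median-ratio scaling the sign turned for Ndufaf2 0.0080, Sdhc 0.0075 and Uqcrc2 0.018. With a pseudocount of 0.1 the sign turned for Cox7a1 0.020. With quantile normalization the sign turned for Atp5g3 -0.063, Cox4i1 -0.083, Cox6b1 -0.012, Cox7a1 0.074, Cox7a2 -0.026, Cox7a2l -0.026, Mt-cox3 -0.11, Mt-cyb -0.12, Mt-nd3 -0.080, Mt-nd6 -0.068, Ndufa4 -0.025, Ndufa5 -0.078, Ndufaf2 0.053, Ndufs8 -0.021, Sdhd -0.044 and Uqcrh -0.012. With scaling over genes that are not Mt- the sign turned for Atp5g3 -0.017, Cox4i1 -0.038, Cox7a2l -0.0027, Mt-nd6 -0.029 and Ndufa5 -0.036. Leaving out 1 library at a time turned the sign at least once for Atp5b -0.092 to 0.020, Atp5g1 -0.098 to 0.049, Atp5g3 -0.013 to 0.061, Cox4i1 -0.069 to 0.039, Cox6b2 -0.016 to 0.20, Cox7a1 -0.18 to 0.25, Cox7a2l -0.088 to 0.12, Mt-co1 -0.021 to 0.17, Mt-nd3 -0.070 to 0.23, Mt-nd5 -0.031 to 0.15, Mt-nd6 -0.091 to 0.12, Ndufa4 -0.0052 to 0.11, Ndufa5 -0.080 to 0.057, Ndufaf2 -0.068 to 0.046, Ndufaf4 -0.034 to 0.18, Ndufc1 -0.14 to 0.033, Ndufs8 -0.0078 to 0.10, Ndufv2 -0.077 to 0.012, Sdhc -0.060 to 0.044, Sdhd -0.036 to 0.12 and Uqcrc2 -0.070 to 0.057 (lowest to highest log2 difference).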

Other observations

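Of 23 genes that copy, transcribe and process the mitochondrial genome, 0 were higher and 1 was lower at an unadjusted p under 0.05, against 2.87% of all genes higher and 4.28% lower, and none at an adjusted p. That gene was Pnpt1, a mitochondrial polynucleotide phosphorylase of RNA import and decay, at 38.6, 29.3, 29.2 and 30.2 FPKM in LacZ 1 to 4 and 23.6, 25.5, 22.7 and 24.9 FPKM in HectD3 1 to 4. Its HectD3 libraries all lay below its LacZ libraries, as did those of 2.81% of all genes, with a difference of -0.37 (SE 0.10, limma adjusted p = 0.541). Of 13 tricarboxylic acid cycle genes, 0 passed the unadjusted threshold, with a median difference of -0.026.

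Among 14 regulators of mitochondrial genes, 3 lay lower in HectD3 at an unadjusted p and 0 higher, against 4.28% of all genes lower, and none passed the adjusted threshold. Esrrb, an estrogen-related receptor, measured 3.67, 3.48, 1.84 and 1.96 FPKM in LacZ 1 to 4 and 1.06, 0.526, 0.812 and 0.937 FPKM in HectD3 1 to 4. The groups did not overlap, as for 2.81% of all genes in the lower direction. LacZ 1 and LacZ 2 lay well above LacZ 3 and LacZ 4, and the HectD3 values lay near the filter of 0.5 FPKM. Its difference between groups was -1.0 (SE 0.19, limma adjusted p = 0.269). Ppara, a receptor that controls genes of fatty acid oxidation, measured 10.9, 8.77, 3.54 and 3.76 FPKM in LacZ 1 to 4 and 2.69, 2.57, 3.14 and 4.01 FPKM in HectD3 1 to 4, with LacZ 1 and LacZ 2 far above LacZ 3 and LacZ 4. Its difference was -0.80 (SE 0.31, limma adjusted p = 0.677). Ppargc1b, a coactivator of these receptors, measured 6.63, 5.32, 5.18 and 8.85 FPKM in LacZ 1 to 4 and 3.77, 6.22, 4.33 and 2.45 FPKM in HectD3 1 to 4, and its groups overlapped. The difference was -0.55 (SE 0.23, limma adjusted p = 0.689).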
